A study of Mus musculus with 6 samples.

Results

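The genes that write, maintain and remove DNA methylation were followed in the mRNA microarrays of mouse spleen. They are 8 genes: the maintenance genes Dnmt1, Uhrf1 and Hells, the de novo methyltransferase genes Dnmt3a and Dnmt3b, and the dioxygenase genes Tet1, Tet2 and Tet3. They were chosen by symbol, with earlier results of these data known, and are 8 of the 20659 named genes on the array and 15 of its 39429 probes. Their level was compared between 3 arrays of the model group (MOD, arrays 1, 2 and 3) and 3 arrays of the group given Schisandrol A (SA-H, arrays 4, 5 and 6). Schisandrol A (SA) is a lignan of Schisandra fruit. All mice were 8-week-old male ICR mice, an outbred strain. Both groups had, by the protocol, received cyclophosphamide, a DNA alkylating agent toxic to cells that divide, intraperitoneally at 40 mg/kg for 5 days. The source names of the samples give cyclophosphamide for the MOD group alone. By the labels, the SA-H group then had SA by mouth at 1000 mg/kg per day for 28 days. By the protocol, the MOD group had water over the same 4 weeks. The labels nevertheless give 5 days for the MOD samples and 28 days for those of SA-H, and if so, group and sampling day cannot be told apart. Dose and duration of SA in the labels also differ from those in the study's description of its animal experiment. No array of untreated mice was analysed here.

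In mammals, DNA methylation is carried through cell division by Dnmt1, the methyltransferase that restores the mark on the new strand behind the replication fork. Uhrf1, a ubiquitin ligase, reads the mark on the old strand and brings Dnmt1 to it, and Hells (LSH), a chromatin remodeler of the SNF2 type, moves nucleosomes so that methylation can reach the DNA. Dnmt3a and Dnmt3b place methyl groups on DNA that had none, and the Tet enzymes oxidize 5-methylcytosine, a step towards its removal. Because maintenance runs with DNA replication, its genes are known to be expressed mostly in dividing cells, and the E2F factors, which switch on genes at the start of S phase, are known regulators of such genes. In a spleen recovering from cyclophosphamide the dividing cells are mainly lymphocytes and precursors of red and white blood cells.

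The E2F recognition sequence was looked for in the reference promoters of the 8 genes. The strings TTTGGCGC, TTTCCCGC, TTTGCCGC and TTTCGCGC were searched on both strands from 250 bases before to 50 bases after each annotated start (RefSeq, GRCm38.p6), and matches that overlap were not merged. The 8 genes have 13 such windows. A match was found for Dnmt1, Uhrf1 and Hells, which are the 3 maintenance genes, and these letters were not in the windows of the other 5 genes. Of all 32851 windows 2.26% hold a match, and of all 27025 genes with a window 2.6%. The stretches below show the match in capitals with 16 bases on either side, 5′ to 3′ on the strand of the gene.
Dnmt1, chr9:20952819-20952858, minus strand: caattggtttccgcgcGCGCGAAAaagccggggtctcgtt
Uhrf1, chr17:56304112-56304151, plus strand: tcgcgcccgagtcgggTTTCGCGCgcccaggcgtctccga
Hells, chr19:38930912-38930951, plus strand: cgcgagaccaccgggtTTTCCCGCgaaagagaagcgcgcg
In Dnmt1 the match lies 219 to 212 bases before the start of the third of 3 windows and reads on the opposite strand, and a further match, TTTGGCGC, lies 34 to 41 bases after that start. In Uhrf1 the match lies 185 to 178 bases before the start of the second of 2 windows, and in Hells 62 to 55 bases before the start of its window.

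Here and below, to pass the test is to have an unadjusted p under 0.05 (limma). Among the 3 maintenance genes, Hells was 2.79-fold lower in the SA-H group and Dnmt1 was 1.72-fold lower, and both passed. Uhrf1 gave a fold of 1.30 that did not pass the test. Their adjusted p-values (limma) were 0.0809 for Hells, 0.180 for Dnmt1 and 0.452 for Uhrf1. Of the other genes, none of Dnmt3a, Dnmt3b and Tet2 passed the test, and Tet1 and Tet3 were too dim to be tested. The call used here asks for a 2-fold difference or more together with an unadjusted p under 0.05. By this rule 1 of the 6 tested genes, Hells, was called lower and 0 were called higher. Over all 14474 tested genes and unnamed targets, 5.03% were called lower and 7.74% higher, or 728 and 1121 genes. With arrays scaled by their median in place of the 75th percentile these were 2161 and 997. After Benjamini-Hochberg adjustment over all of them, limma left 0 genes (0%) under an adjusted p of 0.05 although 3377 had an unadjusted p under 0.05, and the smallest adjusted p was 0.0712. Nothing in the labels says that the 3 arrays of a group came from separate mice, so p-values reflect the spread of these 6 samples alone, part or all of which may be technical.

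The arrays differed in brightness, and array 4 was the dimmest. The 75th percentile of the signal was 599 to 840 on the MOD arrays and 220, 868 and 433 on SA-H arrays 4, 5 and 6. Levels are therefore given as log2 signal relative to the 75th percentile of the same array, so that a difference of 1 is a 2-fold difference. The share of spots well above background lay between 43.1% and 73.9%. The arrays were scanned on 3 days, of which day 1 held arrays 1, 3 and 6, day 2 held arrays 2 and 4, and day 3 held array 5. Of the B cell markers 11 of 12 were tested and of the T cell markers 12 of 12, as the labelled tissue would have, while of 10 liver markers, a tissue that the extraction protocol also names, 3 were tested and Alb and Apoa1 were not. Of 8 fat markers 5 were tested, but 4 of them passed the filter through the MOD group alone. Fabp4, a fatty acid carrier of fat cells and the 1 fat marker well above background on all 6 arrays, had a log2 fold change of -0.80 (limma, adjusted p = 0.127).

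**Figure D1:**
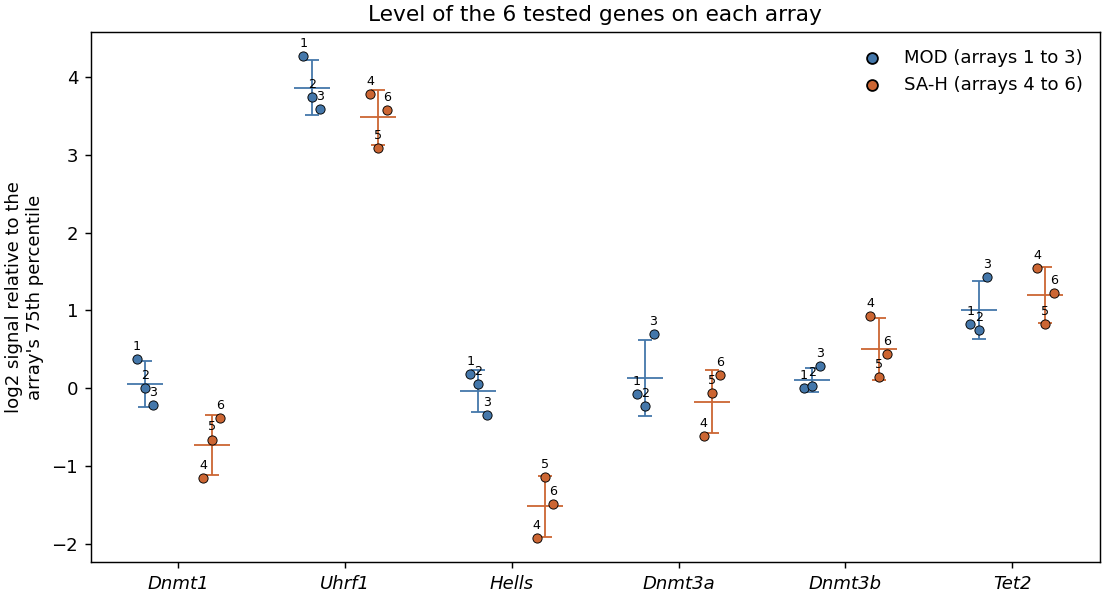
Level of the 6 tested genes on each array (log2 signal relative to the array's 75th percentile), with the mean and SD of each group of 3 arrays as a bar and whiskers and the array number above each point. The MOD and SA-H points do not overlap for Dnmt1 and Hells and overlap for Uhrf1, Dnmt3a, Dnmt3b and Tet2.

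Hells, the chromatin remodeler, had levels of 0.18, 0.06 and -0.35 on MOD arrays 1, 2 and 3 and of -1.92, -1.14 and -1.49 on SA-H arrays 4, 5 and 6. Every SA-H array was below every MOD array, with array 4 the lowest. The means were -0.04 ± 0.28 (SD, n = 3) and -1.52 ± 0.39 (SD, n = 3), and the log2 fold change was -1.48 with a standard error of 0.29 and a 95% interval from -2.17 to -0.80 (limma, adjusted p = 0.0809). Hells thus stood 233rd of 14474 by p, and 1.45% of the tested genes had a lower log2 fold change. Its single probe was well above background on all 6 arrays, although its signal of 57.9 on array 4 was not far above 33.7, the lowest signal of any spot called well above background there. Without array 4 the log2 fold change was -1.28 (adjusted p = 0.0724). Between arrays scanned on the same day the difference was -1.40 on day 1 and -1.98 on day 2, the latter between arrays 2 and 4 alone. With the day as a block in the fit the log2 fold change was -1.65 (adjusted p = 0.0299). A fit with this block takes nothing on the group difference from array 5, which was alone on its day. A random block for slide scan was formed from the scan time in the file headers alone. Arrays 1 and 3 shared a scan time, as did arrays 2 and 4. With this block the log2 fold change was -1.59 (adjusted p = 0.0592). With background corrected by the normexp method instead, which lifts low signals, it was -0.95 (adjusted p = 0.0639), under the 2-fold limit, so that 0 of the 6 genes were then called lower. In a bulk sample, fewer cells of a type and less RNA per cell cannot be told apart.

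Dnmt1, the maintenance methyltransferase, had levels of 0.37, 0.00 and -0.21 in MOD against -1.15, -0.66 and -0.38 in SA-H. The groups again did not overlap, although the gap between array 3 and array 6 was small beside the spread within each group. The means were 0.05 ± 0.30 and -0.73 ± 0.39 (SD, n = 3 each), and the log2 fold change was -0.79 with a standard error of 0.30 and a 95% interval from -1.48 to -0.09 (limma, adjusted p = 0.180). Dnmt1 did not reach the 2-fold limit, and its unadjusted p stayed under 0.05 in 2 of the 6 fits that leave out an array (range 0.0268 to 0.121). Without array 4 it was -0.57 (adjusted p = 0.237). Within scan day 1 the difference was -0.46 and within day 2 it was -1.15, and with the day as a block the log2 fold change was -0.76 (adjusted p = 0.164) and its unadjusted p was no longer under 0.05. When arrays were scaled by their median instead, the log2 fold change was -1.11 and Dnmt1 was called lower as well, but that scaling moves the median of all tested genes from -0.04 to -0.36, and relative to this shift the gap is as before.

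Uhrf1, which recruits Dnmt1, had levels of 4.26, 3.74 and 3.59 in MOD against 3.78, 3.09 and 3.58 in SA-H. Array 4 lay above 2 of the 3 MOD arrays, and the groups overlapped. The log2 fold change was -0.38 with a 95% interval from -1.09 to 0.32 (limma, adjusted p = 0.452), so that neither no change nor a 2-fold fall was outside the interval. Within scan day 1 the difference was -0.35, and within day 2 it was 0.04. A second, much dimmer probe, listed for another transcript of Uhrf1, gave -0.35.

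Of the 6 tested genes, 2 had an unadjusted p under 0.05 and a lower level in the SA-H group, and for the same 2 every SA-H array lay below every MOD array. The count of 2 fell to 1 with the scan day as a block, the normexp background, no filter, the methods' analysis of variance and the authors' value table, and without array 1, 2, 4 or 5. Over all tested genes, 12.5% were lower and 10.8% higher at this p, 20.7% had every SA-H array below every MOD array and 11.9% had every SA-H array above. The median log2 fold change of the 6 genes was -0.34, against -0.04 over all tested genes.

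**Figure D2:**
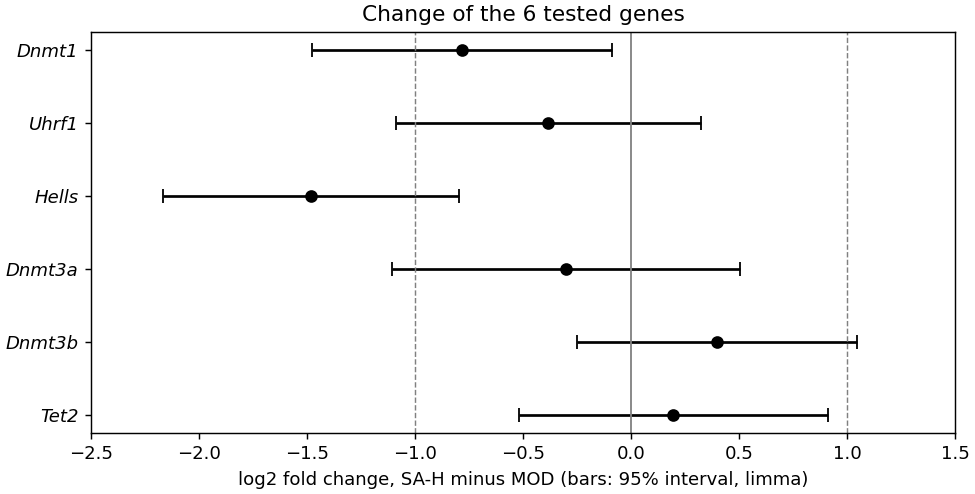
Log2 fold change (SA-H minus MOD) of the 6 tested genes, with its 95% interval from limma as bars and dashed lines at a 2-fold difference in either direction. The intervals of Hells (-2.17 to -0.80) and Dnmt1 (-1.48 to -0.09) lie below 0, and those of Uhrf1, Dnmt3a, Dnmt3b and Tet2 hold 0.

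The de novo methyltransferase genes did not pass the test in either direction. Dnmt3a, the main de novo enzyme of blood cells, had levels of -0.07, -0.23 and 0.69 in MOD against -0.62, -0.07 and 0.17 in SA-H. The highest point was array 3 and the lowest array 4, and the groups overlapped (log2 fold change -0.30, 95% interval -1.11 to 0.50, limma, adjusted p = 0.599). Dnmt3b, the related enzyme best known from the early embryo, had levels of 0.00, 0.03 and 0.28 in MOD against 0.93, 0.14 and 0.44 in SA-H. Here array 4 was the highest, opposite to its place for Hells and Dnmt1, and the log2 fold change was 0.40 (95% interval -0.25 to 1.05, limma, adjusted p = 0.402). The 3 Dnmt3b probes disagreed. The second one had levels of -1.54, 1.65 and -1.10 in MOD against -0.22, 0.40 and -2.73 in SA-H. Its log2 fold change was -0.52 with a standard error of 1.05. Its lowest levels were on arrays 1, 3 and 6, those scanned on day 1, and on array 6 it was not well above background. The third, which was dim, gave 0.32 with a standard error of 0.29. The second probe was highest on arrays 2 and 5, which were also the 2 brightest arrays. They had 72.2% and 73.9% of spots well above background against 43.1% to 49.4% on the others. Whether brightness or scan day has a part in the swing of the second probe was not tested.

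**Figure D3:**
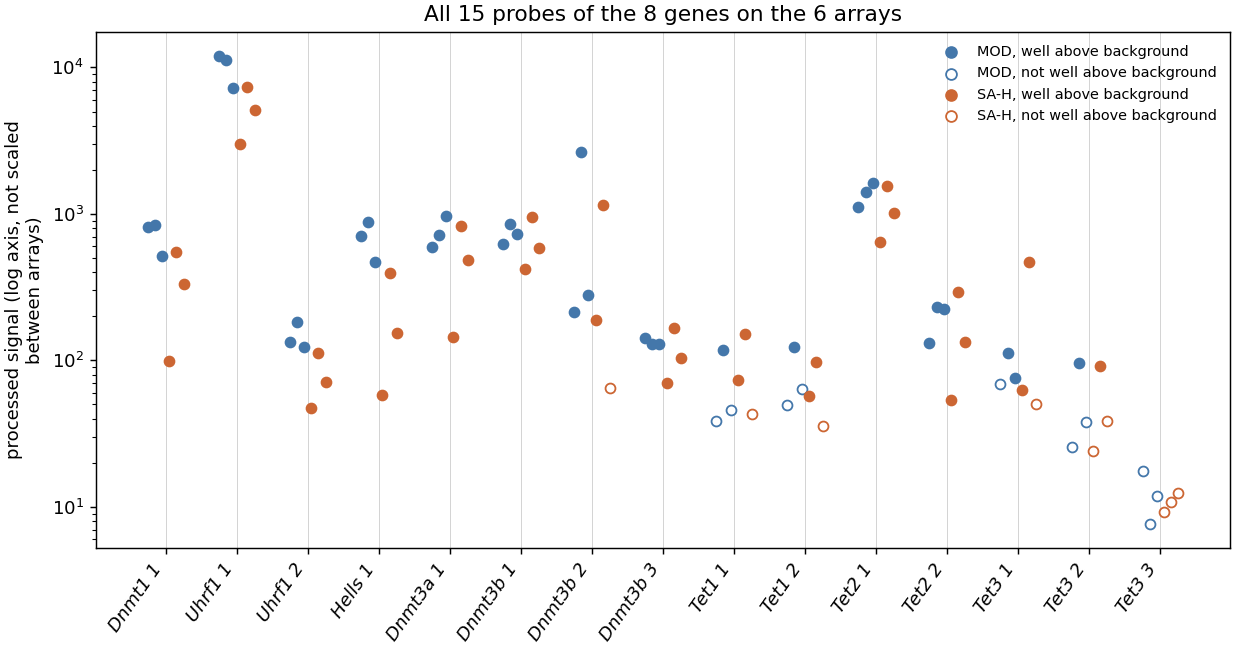
Processed signal of all 15 probes of the 8 genes on the 6 arrays (log axis, not scaled between arrays), MOD in blue and SA-H in orange, with open points where the spot was not well above background. The 10 tested probes are filled on all 3 arrays of at least 1 group, whereas the 2 Tet1 and 3 Tet3 probes hold open points in both groups.

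Of the dioxygenase genes, Tet2 alone was bright enough to be tested. Tet2, which is needed for normal development of blood cells, had levels of 0.83, 0.75 and 1.43 in MOD against 1.54, 0.83 and 1.23 in SA-H. The groups overlapped over nearly their whole range, and the log2 fold change was 0.20 (95% interval -0.52 to 0.91, limma, adjusted p = 0.713). A second, dimmer Tet2 probe gave 0.08 with a standard error of 0.29. With arrays scaled by their median the Tet2 value was -0.13, which is the shift of all genes given above, and relative to it Tet2 did not move. Tet1 and Tet3 were listed with signals near the background. Each of the 2 Tet1 probes was well above background on 1 MOD array and 2 SA-H arrays, with signals from 35.6 to 152 on all arrays. The brightest Tet3 probe was well above background on 2 arrays of each group and read 473 on array 5 against 50.2 to 112 on the other arrays, a second one on 1 array of each group, and the third, at 7.62 to 17.5, on 0 arrays. No fold is given for these 2 genes, since neither group measured them on all of its arrays.

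A comparison between genes on the same array does not depend on a single scaling factor per array, although other processing steps can change it. The log2 gap between each pair of the 6 tested genes was therefore compared between the groups with an exact permutation test over the 6 arrays, which cannot give a two-sided p below 0.1. In 7 of the 15 pairs the gap differed without overlap between the groups, and the same share over pairs of all genes was not computed. All 5 pairs with Hells, which share that 1 gene, were among them: the change of Hells was lower than that of Dnmt1 by a log2 difference of 0.70, than that of Uhrf1 by 1.099, than that of Dnmt3a by 1.18, than that of Tet2 by 1.68 and than that of Dnmt3b by 1.88 (exact p = 0.1 each, adjusted p = 0.214 over the 15 pairs). The other 2 pairs were Dnmt3b with Dnmt1, where the changes differed by 1.18, and Dnmt3b with Uhrf1, where they differed by 0.78, in both with Dnmt3b the higher. These p-values cannot pass 0.05 in a design of 3 against 3. The level of Hells alone also separated the groups, so its 5 pairs are not separate support. Of all tested genes 20.7% had every SA-H array below every MOD array, and 11.9% every SA-H array above. The gaps also depend on background correction and on the source of the values. With normexp the log2 fold changes of Hells and Dnmt1 were -0.95 and -0.59. In the authors' value table they were 0.19 and -0.65, with Hells the higher. The gap between Dnmt1 and Uhrf1 changed by -0.40 (exact p = 0.3) and the groups overlapped.

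Genes of the cell cycle were set beside the maintenance genes. Of 29 tested S phase genes, 11 had an unadjusted p under 0.05, all lower in the SA-H group, against 12.5% lower over all tested genes, and 5 were called lower, with a median log2 fold change of -0.55. Of these 29 genes 27 were well above background on all 6 arrays, and 3 of the 27 were called. The smallest p-values belonged to Mcm2 (-1.39) and Mcm5 (-1.03) of the replicative helicase, Orc1 (-1.39) of the origin recognition complex and Pole2 (-1.58) of a DNA polymerase, all called lower. Pole2 was clear of background on 2 SA-H arrays and not on the third, so that its value rests in part on a spot near background. Of 21 tested mitosis genes, 13 were lower at this p and 0 higher, and 9 were called lower, with a median of -0.95, led by the checkpoint kinase genes Bub1 (-1.28) and Bub1b (-1.37), the cytokinesis gene Anln (-1.30) and the spindle gene Nusap1 (-1.89). By the same rule 5.03% of all tested genes were called lower. Of the 21 mitosis genes 19 were well above background on all 6 arrays, and 8 of the 19 were called. Without array 4, 14 S phase genes and 16 mitosis genes were lower at this p, and 3 and 7 were called. The S phase count falls to 3 without array 1, to 5 without array 2 or array 5 or with the scan day as a block, and to 6 without array 6. Of the 29 S phase genes, 7 had a lower log2 fold change than Dnmt1 and 16 a lower one than Uhrf1.

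**Figure D4:**
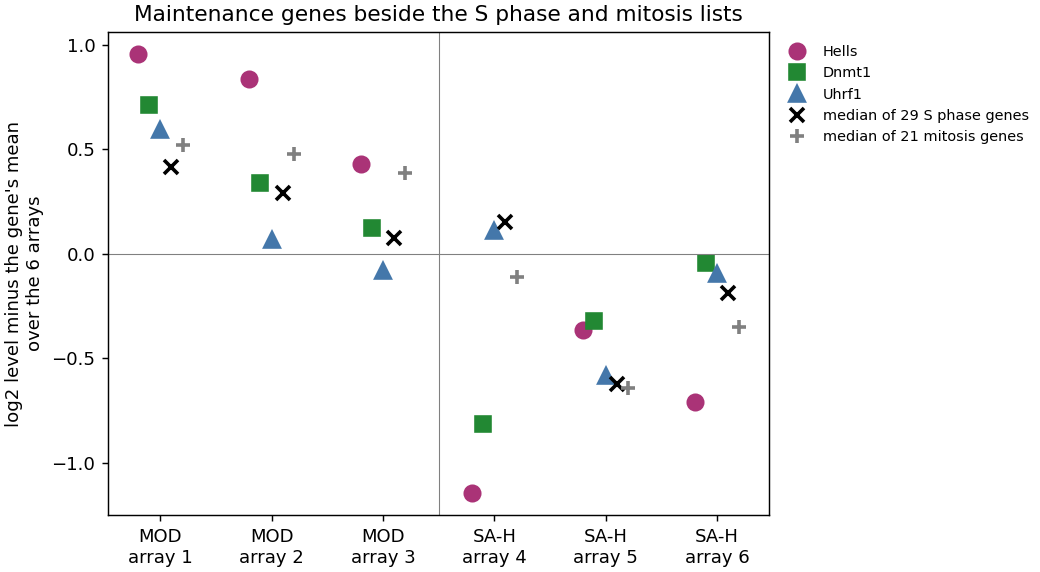
Level of Hells, Dnmt1 and Uhrf1 on each array after subtracting the gene's own mean over the 6 arrays (log2), with the median of 29 S phase genes and of 21 mitosis genes treated the same way. On array 4 the S phase median (0.15) and Uhrf1 (0.11) are above 0 while Dnmt1 (-0.81) and Hells (-1.15) are at their lowest.

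Array by array the maintenance genes had their lowest values in different samples. The median of the S phase genes, each taken relative to its own mean over the 6 arrays, was 0.41, 0.29 and 0.08 in MOD and 0.15, -0.63 and -0.19 in SA-H, so that array 4 was not low and array 5 was the lowest. Uhrf1 on the same scale was 0.59, 0.07 and -0.08, then 0.11, -0.59 and -0.10, with the same lowest array. Hells was 0.96, 0.84 and 0.43, then -1.15, -0.37 and -0.71, with array 4 the lowest and array 5 the highest of the SA-H arrays. Dnmt1 also had its lowest value, -0.81, on array 4. Array 4 was also the lowest array for Fabp4, whose level was 3.07, 2.95 and 2.56 in MOD and 1.94, 2.12 and 2.12 in SA-H, and it was the highest for the ribosomal protein genes at 0.69. The median of the erythroid markers, genes of red cell precursors, was 0.39, 0.25 and 0.09, then 0.31, -0.62 and -0.17. Of the 18 tested, 5 were lower at an unadjusted p under 0.05, against 12.5% lower over all tested genes, among them Epb42 (-1.62) and Rhag (-1.18). Others were higher or nearly level without passing the test, among them Hba-a1 (0.71), Slc4a1 (0.17) and Alas2 (-0.09). The count of 5 was 3 without array 1, 11 without array 4 or with quantile normalization, and 17 in the authors' value table. B cell markers had a median change of -0.11 with 2 of 11 called higher, against 7.74% of all tested genes. Of these 2, Fcer2a was well above background on 2 MOD arrays and 3 SA-H arrays, so that it passed the filter through the SA-H group alone. With the filter on all 6 arrays 1 B cell marker was called higher. T cell markers had a median change of -0.02 with 0 of 12 called. The authors' value table gave medians of 0.45 for the B cell and 0.74 for the T cell markers. Their part in the levels of Hells and Dnmt1 was not tested.

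The promoter string was not particular to the maintenance genes. Of the 26 S phase genes with a reference window 11 (42.3%) hold it, against 1 of 18 mitosis genes. Among tested genes, 401 hold the string, of which 20.0% were lower and 5.7% higher at an unadjusted p under 0.05, and 8412 hold none, of which 13.6% were lower and 8.2% higher. Their median log2 fold changes were -0.24 and -0.11. These are counts over genes of the same 6 arrays and no test was made of them.

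Of 13 tested genes that bind, guide or resemble the methyltransferases, 4 had an unadjusted p under 0.05, all lower in the SA-H group, against 12.5% lower over all tested genes, with a median of -0.61. The count was 1 without array 1, without array 3 and in the authors' value table, where the median was -0.08. Uhrf2, the close relative of Uhrf1, had levels of 2.48, 2.33 and 2.78 in MOD against 1.24, 1.47 and 1.80 in SA-H. The groups did not overlap, and Uhrf2 was called lower, while its difference from Uhrf1 was not tested (log2 fold change -1.03, SE 0.26, limma, adjusted p = 0.0998). No partner was called lower with quantile normalization, without array 3, without array 4 or in the authors' value table. The others were the histone deacetylase gene Hdac1 (-0.70), the tRNA methyltransferase gene Trdmt1, once named Dnmt2 (-0.83), and Dmap1, whose product binds Dnmt1 (-0.61). Cdca7, whose product activates Hells, is named outside the rule after its values were seen. It had levels of 2.19, 2.29 and 1.88, then 1.93, 1.26 and 1.36, and its log2 fold change of -0.60 did not pass (adjusted p = 0.236).

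Of 8 tested methyl-CpG binding proteins, readers of the mark, 1 was lower and 1 higher at an unadjusted p under 0.05, with a median of -0.18, shares near the 12.5% lower and 10.8% higher of all tested genes. Zbtb33 (Kaiso), a zinc finger protein that binds methylated DNA, was called lower at -1.43, but it was clear of background on 2 SA-H arrays and not on the third, and 0 of these genes were called lower with the filter on all 6 arrays, with normexp or in the authors' value table. Mbd6 was higher at 0.74 without reaching 2-fold. Mbd2 (-0.50) did not pass the test.

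Of 17 tested genes that act with the Tet enzymes or repair the oxidized base, 3 were lower and 0 higher at this p, near the 12.5% lower of all tested genes, and the median was -0.40. The count was 1 without array 1, without array 3 or with no filter, 5 with normexp or median scaling, and 6 with either batch term. Neil3, a DNA glycosylase of dividing cells, had levels of 1.89, 1.81 and 1.78 in MOD against 0.39, 0.51 and 0.69 in SA-H. Its groups stood farther apart than their spread, and it was called lower (-1.29, SE 0.22, limma, adjusted p = 0.0762). Apex1, an endonuclease of base excision repair, was lower at -0.71 without reaching 2-fold. Parp1, which senses DNA breaks, gave -1.25 but varied widely in the SA-H group (SD 1.23, n = 3) and did not pass the test (adjusted p = 0.242).

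The supply of the methyl donor and of 2-oxoglutarate, which the Tet enzymes consume, is made by a further set of enzymes. Of 12 tested, 5 were lower and 0 higher at this p, against 12.5% lower over all tested genes, 3 were called lower, and the median was -0.55. Without array 1 the count was 3, and in the authors' value table it was 1, with 0 called and a median of -0.16. They include the mitochondrial serine hydroxymethyltransferase gene Shmt2 (-1.12), the isocitrate dehydrogenase subunit gene Idh3a (-1.31), and Ahcyl1, a relative of the enzyme that clears S-adenosylhomocysteine (-2.002). Ahcyl1 was clear of background on 2 SA-H arrays and not on the third, and its value rests in part on array 4, where its level was -2.29 against -0.16 and -0.25 on arrays 5 and 6.

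Of 13 tested chromatin remodelers of the SNF2 type, the family of Hells, 3 were higher and 2 lower at this p, against 10.8% and 12.5% of all tested genes. Their median of 0.29 turned to -0.03 with median scaling and to -0.05 with the mean of the kept probes. The count of higher genes was 1 without array 1, and that of lower genes was 1 without each of the arrays but array 4. Ercc6l, which acts in mitosis, was called lower at -1.35, and Smarcad1 was lower at -0.56. Chd2 (1.08) and Chd8 (1.50) were called higher, while the authors' value table gave 0 called higher.

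Genes that DNA methylation is known to keep silent outside the germ line gave little to measure. Of 19 on the array, 2 were tested, since neither group measured the others on all of its arrays. Taf7l had levels of 2.05, 1.96 and 1.92, then 3.90, 2.89 and 2.73, and was called higher at 1.20 (limma, adjusted p = 0.118). Of all tested genes 7.74% were called higher. The Taf7l probe was well above background on every array of both groups, so it did not read as silent in either. Brdt gave -0.06 with levels that swung from -3.67 to 0.54 across the arrays. DNA methylation itself was not measured.

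For each tested gene, the named genes whose level ran most like its own over the 6 arrays were picked out of 10673. For Hells they were B3gnt2, Ythdc2 and Agtpbp1 and for Dnmt1 they were Ppil3, Orc2 and Rbmx2, each with a Pearson r above 0.99. For Uhrf1 they were Mtss2, Esd and Ubl4a (r = 0.989, 0.986 and 0.980), and at r above 0.99 for Dnmt3a they were Gdpd5, Spin2c and Cldn12, for Dnmt3b they were Hsf2, Agrn and Rnf121, and for Tet2 they were Top3a, Tmem192 and Dnajc18. With 6 points that share their arrays and their scaling such values are easily reached: 200 genes ran with Hells, 217 with Dnmt1 and 37 with Uhrf1 at r above 0.95. Between the genes themselves, r was 0.91 for Hells with Dnmt1, 0.53 for Dnmt1 with Uhrf1 and 0.45 for Hells with Uhrf1, and it was -0.85 for Hells with Dnmt3b and 0.85 for Dnmt3b with Tet2.

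**Figure D5:**
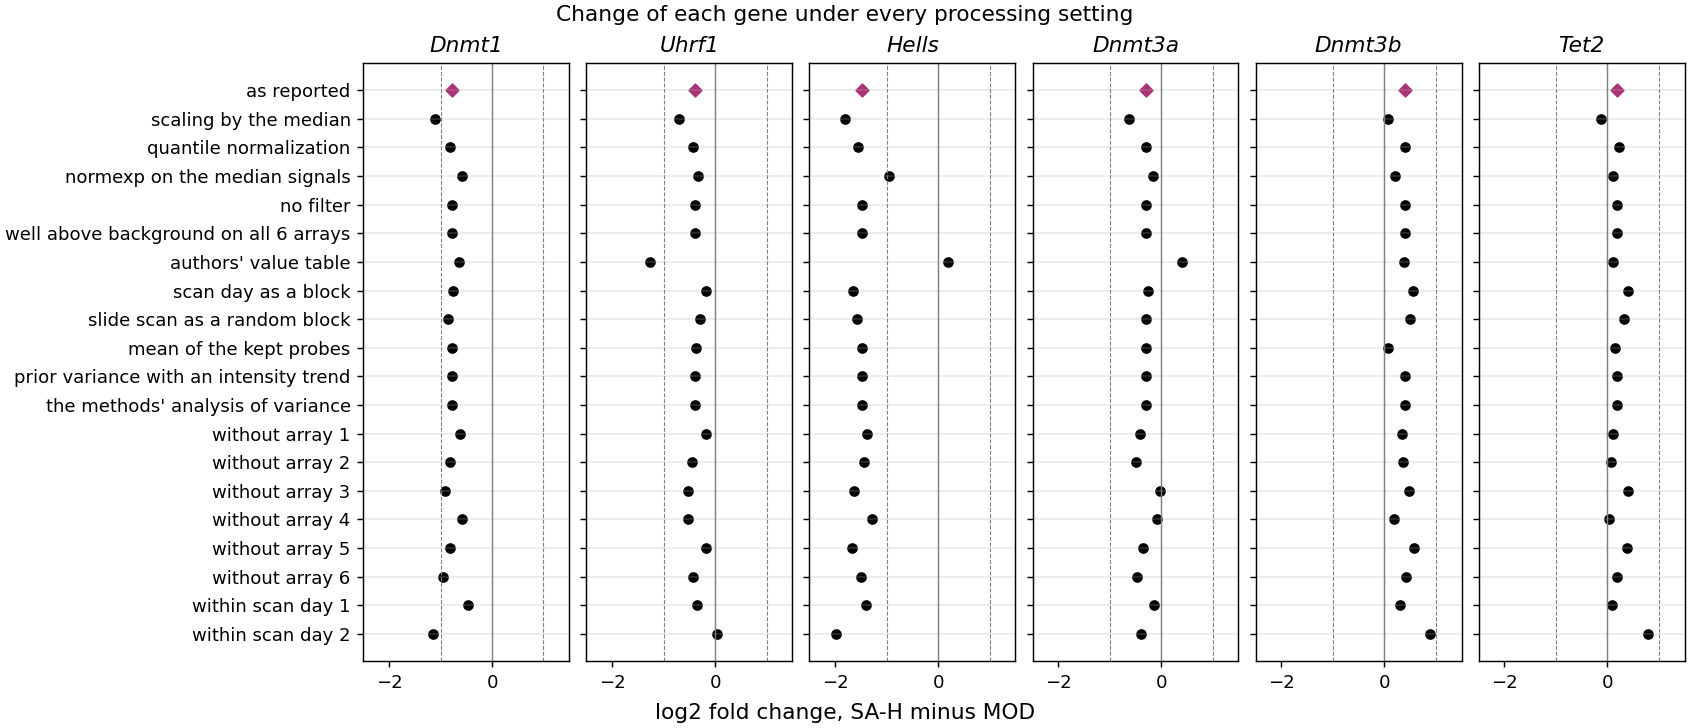
Log2 fold change (SA-H minus MOD) of the 6 tested genes under each processing setting, with the value as reported as a diamond, dashed lines at a 2-fold difference and 1 point per setting. Hells lies between -1.98 and -0.95 in all settings but the authors' value table (0.19), and Dnmt1 is below 0 in all of them.

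The deposited value table gave other values for some of these genes. In that table the log2 fold change of Hells was 0.19 (adjusted p = 0.541), that of Uhrf1 was -1.26 (adjusted p = 0.0792, called lower) and that of Dnmt3a was 0.41 (adjusted p = 0.143), each unlike the value from the scanner files, whereas Dnmt1 was at -0.65 (adjusted p = 0.219). The table did not follow the scanner files array by array. After each of 13894 probes was centred on its own mean, its columns correlated with the scanner values of the same array at r from -0.27 to 0.47, and 3 of the 6 columns ran closest to their own array. Column 3, of MOD, ran closest to array 4, of SA-H (r = 0.32, against -0.27 with array 3). Columns 4 and 5 ran closest to arrays 5 and 6 (r = 0.23 and 0.26). Which of both sources carries the right array names, which also set the groups, was not settled. The values above are those of the scanner files.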

How the data were processed

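The 6 arrays carry Cy3-labelled spleen RNA, 3 of MOD and 3 of SA-H, grouped by their titles. The authors obtained the intensity values with Agilent Feature Extraction 11.0.1.1, on a linear scale with background subtracted and without scaling across arrays. The deposited value table was read as log2 values made by the authors by steps not given in the sources used here. Spots flagged as outliers were left out and spots of a probe averaged. A probe was kept if all 3 arrays of a group measured it well above background, and the brightest kept probe stood for its gene. Probes were named through their RefSeq accession (27234 of 39429).

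In R 4.3.3, limma 3.58.1 compared the groups over 14474 genes and unnamed targets. The study's methods name an analysis of variance, which was run as an alternative with other scalings, background corrections (normexp, offset 50, on the median signals, as no mean signals are in the files), filters, batch terms and arrays left out. The other lists were run under the same alternatives, a choice made after seeing the data. The limma fit was also run on simulated arrays with independent normal noise for each gene. These held no effect of brightness, scan day or background, so they say nothing about those. The genes and lists were chosen with earlier results of these data known. All probes of the 8 genes, up to 4 genes of smallest p per list and the 3 genes most correlated with each tested gene are named. Some genes picked this way are not reported here. Exact tests used scipy 1.17.1 in Python 3.11.15, and figures matplotlib 3.10.9. The number of arrays limits the precision.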

Additional observations from a re-analysis of the deposited data

How the results depend on the processing

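The number of the 8 genes called lower was 1 as reported and in 15 of 17 alternatives, with 2 (Hells and Dnmt1) when arrays were scaled by their median and 0 with the normexp background correction. In the authors' value table the gene called was Uhrf1 (-1.26) and not Hells. The adjusted p of Hells was 0.0110 with median scaling, 0.0299 in the fit blocked by scan day, and from 0.0724 to 0.362 when an array was left out. For Hells it was 0.150 with the methods' analysis of variance, 0.447 with no filter and 0.541 in the authors' value table. The count was 1 in all 6 fits that leave out an array, and the number called higher was 0 in all 17. The number of all tested genes called was 1849 as reported, 3158 with median scaling, 1135 with the methods' analysis of variance and between 1228 (without array 4) and 2466 (without array 6) when an array was left out. Both filters and the other alternatives kept it within 1.5 times, among them 1246 with normexp and 1306 with the authors' value table. The share of higher genes among the calls was 60.6% as reported, 31.6% with median scaling and 23.3% with the authors' value table. The sign of Tet2 turned with median scaling (-0.13), which moves all genes alike, and signs reversed for Dnmt3a (0.41) and Hells (0.19) in the authors' value table. The cause was not tested. With the scan day as a block, 1075 genes passed an adjusted p of 0.05, with median scaling 1094, and with a random block for slide scan 0 (smallest 0.0525, Hells 0.0592). The scan day block takes nothing on the group difference from array 5, which was alone on its day. Under the 17 alternatives the S phase genes lower at an unadjusted p under 0.05 numbered 3 to 22 and the mitosis genes 9 to 18, and the medians of both lists stayed below that of all tested genes. No paired analysis was possible because the groups share no replicate numbers. Signal over background limits Tet1 and Tet3, which could not be tested, and the low signal of Hells on array 4.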
